A study of Mus musculus with 20 samples.

Results

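The 162 genes described here are protein-coding genes that WT cells switched up between D6 and D8 of neural differentiation and that TKO cells did not bring to the same level at D8. They were chosen by their levels in CPM, the estimated counts of a gene divided by the library sum and multiplied by 1000000, as the mean of 2 libraries. A gene was taken if it had at least 10 CPM in WT D8, at least 4 times its WT D6 level and at least 4 times its TKO D8 level. Of 21897 protein-coding genes among 35975 genes with a matched transcript, 403 met the first 2 conditions and 189 met all 3. The choice left out 27 of those 189 by symbol, namely potassium channels, Hox genes, ionotropic and metabotropic glutamate receptor genes, GABA receptor genes, semaphorins, Eph receptors, ephrins and protocadherins, together with Mapt, Neurod4, Otp, Stmn2 and Nefl, where they qualified. The remaining 214 late-onset genes, which stood above the TKO limit at D8, serve below as the set most like the 162. No gene was left out of the 214 by symbol, so the sets differ in this.

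Polyadenylated RNA was sequenced from TKO and WT cells of ES-E14TG2a, a mouse embryonic stem cell line, as stem cells (D0) and on 4 later days, D2, D4, D6 and D8, while they differentiated towards neural progenitor cells. Each of the 10 groups of genotype and day held 2 libraries labelled as biological replicates, 20 in all. D0 cells grew without feeders on gelatin in medium with serum and leukemia inhibitory factor, and the later days were spent on laminin in N2B27 medium without serum. The labels do not say what TKO stands for, nor how many clones each genotype comes from, so p-values measure the spread between these libraries. TKO is a common name for mouse stem cells without Dnmt1, Dnmt3a and Dnmt3b, which the labels here do not state. Dnmt1, the maintenance DNA methyltransferase, averaged 73.2 to 91.9 CPM over the 5 TKO groups and 339.6 to 439 CPM over the 5 WT groups. Dnmt3a averaged 8.45 to 61.4 CPM over the 5 TKO groups and 88.5 to 556 CPM over the 5 WT groups. Dnmt3b had a lower mean in TKO than in WT cells at D0, D2, D4 and D6. It averaged 25.3 CPM in TKO D0 against 79.5 CPM in WT D0, and 106 CPM in TKO D2 against 1267 CPM in WT D2. At D8 Dnmt3b was not lower, with 89.5 ± 8.03 CPM in TKO D8 and 53.7 ± 13.6 CPM in WT D8 (SD, n = 2 each). A transcript level does not show whether part of a gene was deleted.

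Neural progenitors that leave the cell cycle turn on a succession of transcription factors, then the tubulins, microtubule-binding proteins and guidance receptors of a growing axon, and later the machinery of transmitter release and reception. Such genes are kept low in stem cells and non-neural cells by the repressor REST, which binds a motif called RE1, and many of their promoters are rich in CpG dinucleotides. Markers fixed for the cell types were read beside the 162 genes. Of the 9 neuron markers, Tubb3, Dcx, Stmn3 and Syt1 are among the 162, and the other 5 were also lower in TKO D8, for example Map2 with 157 and 169 CPM in TKO D8 against 621 and 615 CPM in WT D8. Progenitor markers were present in both genotypes at D8, with Nes at 234 and 229 CPM in TKO D8 against 590.2 and 638 CPM in WT D8. Glial markers were near 0, with Gfap at 0.318 and 0.249 CPM in TKO D8 and at 0.0981 and 0.276 CPM in WT D8. Tubb3, Dcx, Stmn3 and Syt1 were lower in TKO D8 by the rule. The name late-onset neuronal genes rests on the neuronal role lists, which hold 83 of the 162. The other 79 were in none of these lists, and some, such as the fibrillar collagen gene Col3a1, are best known from other tissues.

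Libraries held 26015282 to 38074768 estimated counts. The composition of the libraries moved with the choice of genes: the TMM factor, which corrects library size for a few dominant genes, was 1.01 and 1.02 in TKO D8, 1.06 and 1.04 in WT D6 and 1.15 in both WT D8 libraries. With CPM scaled by these factors 97 genes met the rule, all of them among the 162, since WT D8 levels then come out lower. Levels below are plain CPM, and every test uses the TMM scaling.

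Promoters of 114 of the 162 genes were in the RefSeq table (GRCm38.p6, 250 bases before the start site to 50 after it). The window's start site lay within 100 bases of the start of the gene's leading transcript for 84 of them. The windows of 5 genes are printed, cut back where an annotated exon of any transcript begins, to show how unlike the promoters of genes with a common course are. Tubb3, Dcx and Olfm1 are shown because they rank among the highest at WT D8, Celsr3 and Gsx1 because they carry the left part of the RE1 motif, TTCAGCACC. Robo3 also ranks high but is not shown, since its window starts 10572 bases from the start of its leading transcript. Capitals mark a motif match: TATAAA in Dcx, 98 bases before the start site, and TTCAGCACC in Celsr3 and Gsx1, 127 and 20 bases before it.
Tubb3, chr8:123411303-123411423, plus strand: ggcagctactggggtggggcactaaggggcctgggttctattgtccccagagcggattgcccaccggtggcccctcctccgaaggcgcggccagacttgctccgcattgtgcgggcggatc
Dcx, chrX:143933312-143933469, minus strand: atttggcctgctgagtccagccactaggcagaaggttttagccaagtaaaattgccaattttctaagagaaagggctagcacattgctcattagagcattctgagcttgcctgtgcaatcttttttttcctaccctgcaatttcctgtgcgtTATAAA
Olfm1, chr2:28205439-28205658, plus strand: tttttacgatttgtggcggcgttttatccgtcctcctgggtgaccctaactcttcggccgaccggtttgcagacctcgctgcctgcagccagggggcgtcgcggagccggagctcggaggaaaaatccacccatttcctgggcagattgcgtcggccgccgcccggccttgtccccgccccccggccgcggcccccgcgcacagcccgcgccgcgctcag
Celsr3, chr9:108825795-108826044, plus strand: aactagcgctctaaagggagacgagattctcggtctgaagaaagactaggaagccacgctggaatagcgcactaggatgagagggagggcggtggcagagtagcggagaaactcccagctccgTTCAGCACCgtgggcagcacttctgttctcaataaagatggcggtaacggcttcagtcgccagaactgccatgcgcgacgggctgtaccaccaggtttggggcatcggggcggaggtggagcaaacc
Gsx1, chr5:147188446-147188695, plus strand: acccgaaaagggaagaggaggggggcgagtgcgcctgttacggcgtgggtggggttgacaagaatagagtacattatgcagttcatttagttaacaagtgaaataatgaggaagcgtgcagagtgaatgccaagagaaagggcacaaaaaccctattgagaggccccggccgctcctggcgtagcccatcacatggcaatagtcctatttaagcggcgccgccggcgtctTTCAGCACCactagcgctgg

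The Dcx stretch is poor in CpG, with 0.141 of the CpG expected from its base composition, whereas the Olfm1 stretch had a ratio of 1.08 and the Tubb3 stretch 0.579. The median ratio over whole windows was 0.701 in the 162 genes, 0.683 in the 155 windows of the other late-onset genes and 0.606 in 16512 protein-coding genes. The share of windows at a ratio of 0.6 or more was 59.6%, 59.4% and 50.6% in the same order of sets. Motifs were searched on both strands over the 300 bases. TTCAGCACC occurred in 3 of the 114 windows (2.63%), those of Celsr3, Gsx1 and Scg2, against 2 of 155 (1.29%) in the other late-onset genes and 0.388% of all protein-coding windows. The right part of the motif, GGACA followed at once by GCGCC, occurred in none of either late-onset set, against 0.2% of all. The E-box CAGCTG occurred in 17.5% of the windows of the 162, against 22.6% in the other late-onset genes and 15.1% in all. TATAAA occurred in 10.5%, against 8.39% in the other late-onset genes and 12.8% in all. TCCC followed after any 2 bases by GGGA, a site read by EBF factors, occurred in 3.51%, against 1.94% in the other late-onset genes and 0.957% in all. None of these motifs overlaps another by design, and a match is a description of the letters only.

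The levels that chose the genes were as follows. In TKO D8 the 162 genes stood at a median of 19.1% of their WT D8 mean, with a range of 2.08% to 25%. Both TKO D8 libraries lay below both WT D8 libraries for all 162, as did 49.4% of all genes tested, and both WT D8 libraries lay above both WT D6 libraries for all 162, as did 46.7% of all genes tested. In WT the D8 mean was a median of 7.04 times the D6 mean, with a range of 4.01 to 87.4. Summed over the 162 genes, the libraries held 3448 and 4350.3 CPM in TKO D6 and 2827 and 2872 CPM in TKO D8, against 2579.7 and 2291 CPM in WT D6 and 14639 and 14462 CPM in WT D8. Just inside the limit on the ratio of WT D8 to TKO D8 were Slc6a5 at 4.001, Pak3 at 4.005 and Psd at 4.012, and just outside it were Dnm3 at 3.961, Ncam1 at 3.957 and Elavl3 at 3.938. Just inside the limit on the ratio of WT D8 to WT D6 were Pou6f1 at 4.012, Hist3h2ba at 4.037 and Klhl35 at 4.038, and just outside were Evx1 at 3.968, Tspan11 at 3.955 and Slc1a2 at 3.89. Just inside the limit on the WT D8 level were Fgf18 at 10.06 CPM, Nkain3 at 10.2 CPM and Negr1 at 10.23 CPM, and just outside were Gabbr2 at 9.957 CPM, Nkx1-1 at 9.941 CPM and Plcl1 at 9.59 CPM. Because the libraries are from bulk RNA, fewer cells of a type and less RNA per cell cannot be told apart.

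**Figure D1:**
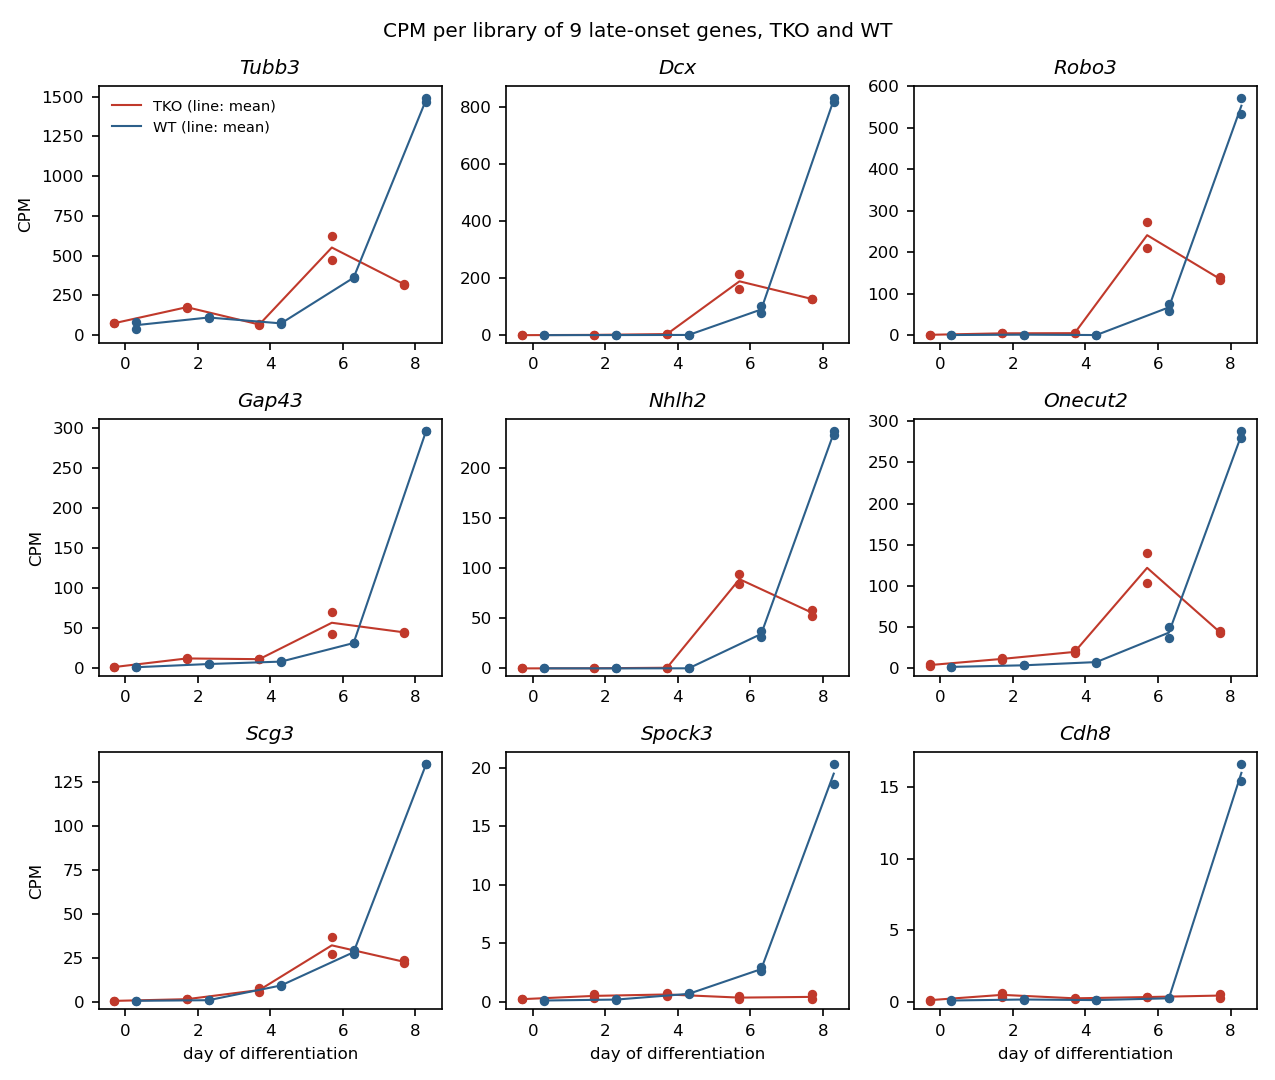
CPM of 9 of the 162 genes by day of differentiation in TKO (red, drawn slightly left of the day) and WT cells (blue, drawn slightly right), with 1 point per library and lines through the means of 2 libraries. Tubb3, Dcx, Robo3, Nhlh2 and Onecut2 were higher in TKO D6 than in WT D6 in both libraries and lower again in TKO D8, while Spock3 and Cdh8 stayed under 1 CPM in each TKO library.

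The plot of 9 genes shows courses that differ before D8. Dcx and Nhlh2 were under 5 CPM up to D4 in both genotypes, Cdh8 was under 1 CPM up to D6 in both, and Tubb3 averaged 75.2 CPM in TKO D0 and 62.9 CPM in WT D0. Of the 162 genes, 99 had a mean of at least 1 CPM in TKO D4 and 101 in WT D4. Tubb3, the neuronal beta-tubulin, had 475 and 626 CPM in TKO D6 and 317 and 321 CPM in TKO D8. In WT cells it had 365 and 357 CPM at D6 and 1466 and 1494 CPM at D8. Both TKO D6 libraries thus lay above both WT D6 libraries, and both TKO D8 libraries lay below both TKO D6 libraries. Dcx, a microtubule-binding protein of migrating young neurons (77.5 kb, chrX:143855842-143933311, minus strand), had 161 and 216 CPM in TKO D6 and 126 and 127 CPM in TKO D8, against 104 and 76.8 CPM in WT D6 and 819.7 and 833 CPM in WT D8. Robo3, a receptor that steers commissural axons across the midline (17.6 kb, chr9:37415669-37433246, minus strand), had 210.1 and 273 CPM in TKO D6 and 133 and 139.6 CPM in TKO D8, against 74.9 and 59.2 CPM in WT D6 and 572 and 533 CPM in WT D8. For Dcx and Robo3 too, the 2 groups of each pair did not overlap.

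**Figure D2:**
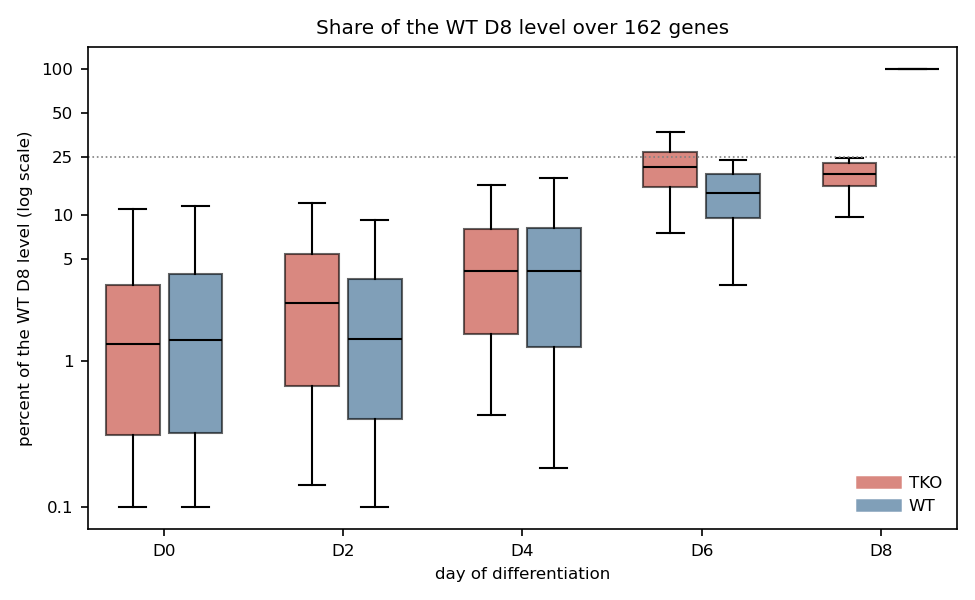
Mean CPM of the 162 genes as a percent of their WT D8 mean on a log scale, by day, in TKO (red, left) and WT cells (blue, right); boxes span the quartiles with the median line, whiskers the 5th to 95th percentiles, values under 0.1% are drawn at 0.1%, and the dotted line marks the limit set by the rule for TKO D8 and WT D6. The median was 21.3% in TKO D6 and 14.2% in WT D6.

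Over all 162 genes the median share of the WT D8 level in TKO cells was 1.32% in TKO D0, 2.52% in TKO D2, 4.12% in TKO D4, 21.3% in TKO D6 and 19.1% in TKO D8. It was 1.4% in WT D0, 1.42% in WT D2, 4.11% in WT D4 and 14.2% in WT D6. The plot of these shares shows the TKO boxes level between D6 and D8. The rule held TKO D8 to at most 25% of WT D8 and did not limit TKO D6. In the 214 other late-onset genes, which lay above that limit in TKO D8, the median share was 33.7% in TKO D6 and 41.4% in TKO D8. At least 1 CPM was reached by 57 of the 162 genes in TKO D0, 159 in TKO D6, 61 in WT D0 and 147 in WT D6. All 162 genes passed the filter on low counts, which they did through WT D8. The 2 libraries of a group differed most at TKO D6, where the median coefficient of variation was 17.0%, against 4.75% in TKO D8, 10.1% in WT D6 and 2.93% in WT D8.

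At D6, the TKO mean was above the WT mean for 136 of the 162 genes. Both TKO libraries were above both WT libraries for 112 genes and below both for 10, and 40 overlapped, while 33.8% of all 18555 genes tested lay above and 34.8% below in the same sense. The median ratio of TKO D6 to WT D6 was 1.5, with quartiles of 1.16 and 2.1. WT D6 was chosen low by the rule, so these values are a description without a test. In the other 214 late-onset genes, which were chosen with the same WT limits, 195 lay above and 3 below, and the median ratio was 2.1. The number of genes with a higher TKO mean was 130 to 142 when single libraries were left out.

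From D6 to D8 the 162 genes split. In TKO D8 both libraries were above both TKO D6 libraries for 38 genes and below both for 69, and 55 overlapped, against 37.1% of all genes tested above and 39.5% below. The median ratio of TKO D8 to TKO D6 was 0.906, and single genes ran from 0.293 for Chrna3 to 4.15 for Chl1. TKO D8 was chosen low by the rule, which favours low ratios here. In the 214 other late-onset genes, 131 lay above and 33 below, with a median ratio of 1.39. Against TKO D4, TKO D8 was higher in both libraries for 154 of the 162 genes, where 40.6% of all genes were.

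**Figure D3:**
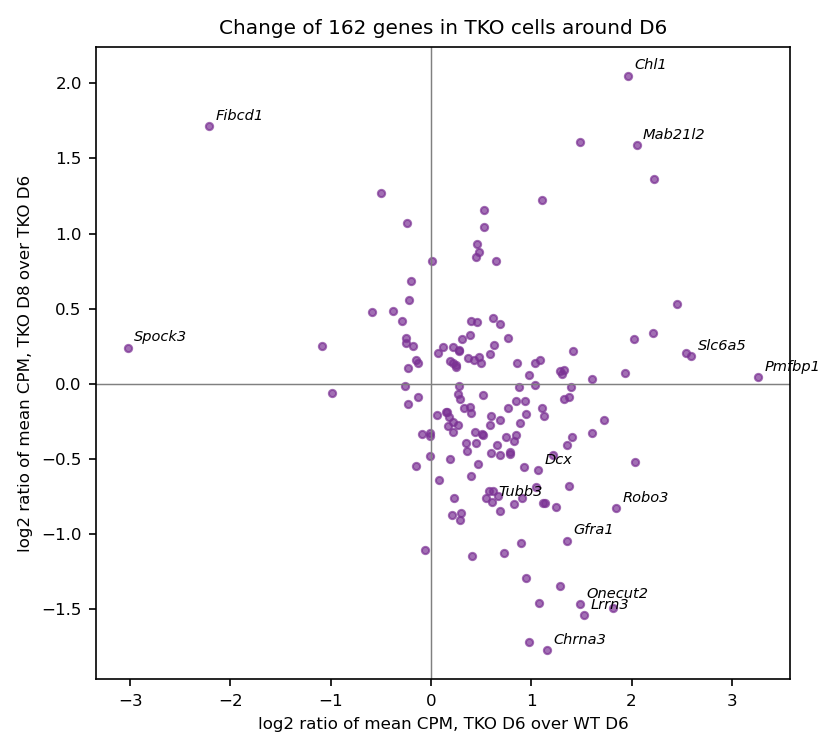
Each of the 162 genes by the log2 ratio of mean CPM in TKO D6 over WT D6 (horizontal) and in TKO D8 over TKO D6 (vertical), with 1 point per gene and grey lines at equal levels. Most points lie right of the vertical line, and Onecut2, Lrrn3, Gfra1 and Chrna3 lie at the lower right, Chl1 and Mab21l2 at the upper right and Spock3 at the far left.

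The transcription factors fell mostly on 1 side of that split. Of the 18 in the list of neuronal transcription factors, 14 were above WT at D6 in both TKO libraries, where 33.8% of all genes tested were. In TKO D8, 15 of the 18 were lower in both libraries than in both TKO D6 libraries, where 39.5% of all genes were. The other 3 were higher, where 37.1% of all genes were. The median share of the WT D8 level over the 18 genes was 27.4% in TKO D6, 16.9% in TKO D8 and 17.0% in WT D6. Onecut2, a homeodomain factor of newly born neurons, had 104 and 139.8 CPM in TKO D6 and 42.7 and 45.7 CPM in TKO D8, against 50 and 36.9 CPM in WT D6 and 279 and 288 CPM in WT D8. Its TKO D6 level was 43.1% of WT D8. Nhlh2, a basic helix-loop-helix factor (chr3:102010076-102015492, plus strand), had 83.9 and 94.4 CPM in TKO D6 and 58.5 and 52.7 CPM in TKO D8, against 37.5 and 31.4 CPM in WT D6 and 237 and 233 CPM in WT D8. Ebf3 had 60.9 and 73.9 CPM in TKO D6 and 35.2 and 36.6 CPM in TKO D8, against 61.5 and 48.9 CPM in WT D6 and 263 and 259 CPM in WT D8, so that this helix-loop-helix factor of postmitotic neurons overlapped between the genotypes at D6. The repressors Scrt1 and Scrt2, which act in neuronal migration and differentiation, the LIM factors Lhx1 and Lhx5 of spinal and hindbrain interneurons, and Isl1 of motor and sensory neurons were also lower in TKO D8 than in TKO D6. The exceptions were the spinal and hindbrain factors Lbx1 and Tlx1, and Tbx20. Tlx1 had 0.853 and 1.18 CPM in TKO D6 and 2.69 and 2.55 CPM in TKO D8, against 0.16 and 0.275 CPM in WT D6 and 13.4 and 9.24 CPM in WT D8.

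The 8 cytoskeletal genes of the axon were all higher in both TKO D6 libraries than in WT D6, where 33.8% of all genes tested were. In TKO D8, 5 of the 8 were lower again, where 39.5% of all genes were lower than in TKO D6. Gap43, a growth cone protein, had 43.3 and 70.5 CPM in TKO D6 and 44.5 and 45.3 CPM in TKO D8, against 31.5 and 31.7 CPM in WT D6 and 296 in both WT D8 libraries. Here TKO D8 lay within the range of TKO D6. Dpysl3, which binds tubulin in growth cones, had 275 and 354 CPM in TKO D6 and 223 and 230.3 CPM in TKO D8, against 201 and 189 CPM in WT D6 and 938 and 933 CPM in WT D8. The neuronal RNA-binding proteins Celf3 and Celf4, which regulate splicing, stood at 19.2% and 21% of WT D8 in TKO D8.

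Adhesion and guidance genes, 16 in all, were the most varied group. Their share of the WT D8 level ran from 1.75% to 56.1% in TKO D6 and from 2.08% to 24.7% in TKO D8. In TKO D6, 10 were above WT in both libraries and 3 were below, where 33.8% of all genes tested were above and 34.8% below. In TKO D8, 6 were above their TKO D6 level and 2 below it, where 37.1% of all genes were above and 39.5% below. The 2 below are Robo3 and Lrrn3, a leucine-rich repeat membrane protein with 22 and 25.2 CPM in TKO D6 and 8.41 and 7.85 CPM in TKO D8, against 9.31 and 7.08 CPM in WT D6 and 40.4 and 43.8 CPM in WT D8. Chl1, a cell adhesion molecule of the L1 family, went the other way, with 1.71 and 2.91 CPM in TKO D6 and 8.91 and 10.2 CPM in TKO D8, against 0.736 and 0.447 CPM in WT D6 and 42 and 41.3 CPM in WT D8. Contactin 2 (Cntn2), which marks early axons, overlapped between TKO D6, at 56.1 and 69 CPM, and TKO D8, at 56.4 and 55.6 CPM, with 39.1 and 34.5 CPM in WT D6 and 274 and 285 CPM in WT D8.

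The widest ratios at D8 belonged to genes that stayed low in TKO cells throughout. Spock3, a secreted testican proteoglycan (chr8:62951009-63357103, plus strand), had 0.192 and 0.492 CPM in TKO D6 and 0.614 and 0.194 CPM in TKO D8, against 2.95 and 2.61 CPM in WT D6 and 20.3 and 18.6 CPM in WT D8. Cdh8, a classical cadherin (chr8:99024471-99416471, minus strand), had 0.304 and 0.331 CPM in TKO D6 and 0.566 and 0.28 CPM in TKO D8, against 0.224 and 0.241 CPM in WT D6 and 16.6 and 15.4 CPM in WT D8. The WT D8 mean was 48.1 times the TKO D8 mean for Spock3 and 37.9 times for Cdh8. Next came Edil3, an integrin-binding secreted protein, at 20 times, Fibcd1, an acetyl-group-binding membrane protein, at 19.7 times, the homeodomain factor Evx2 at 13.3 times and Elfn2 at 12 times. Evx2 differs from the others in its course, with 3.2 and 3.9 CPM in TKO D6 and 1.13 and 1.03 CPM in TKO D8, against 1.6 and 1.99 CPM in WT D6 and 13.7 and 14.9 CPM in WT D8. Spock3 and Cdh8 did not pass between TKO D6 and TKO D4 (adjusted p = 0.107 and 0.561, edgeR).

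Signalling genes numbered 15. In TKO D6, 11 were above WT in both libraries and none was below, where 33.8% of all genes tested were above and 34.8% below. Ank3, the ankyrin of the axon initial segment, had 134 and 143 CPM in TKO D6 and 104 and 107 CPM in TKO D8, against 117 and 98.4 CPM in WT D6 and 445 and 439.5 CPM in WT D8. Gfra1, the GDNF co-receptor, had 66.9 and 80.4 CPM in TKO D6 and 35.8 and 35.6 CPM in TKO D8, against 32.2 and 25.4 CPM in WT D6 and 147 and 156 CPM in WT D8. Its signalling partner Ret had 10.4 and 14.7 CPM in TKO D6 and 7.32 and 7.57 CPM in TKO D8, against 7.78 and 8.01 CPM in WT D6 and 34.6 and 32.3 CPM in WT D8. Both thus lay above WT at D6 and below their own D6 level at TKO D8. Of the 15 genes, 7 were below their TKO D6 level in TKO D8, where 39.5% of all genes tested were. Another 4 were above it, where 37.1% of all genes were, and 4 overlapped. The 4 above, named after their values were seen, had ratios of TKO D8 to TKO D6 of 2.23 for Sez6l, 2.06 for Rgs7, 1.36 for Fam155a and 1.2 for Ptpro.

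Of 11 ion channel and receptor genes, 9 were above WT at D6 and none was below, where 33.8% of all genes tested were above and 34.8% below. In TKO D8, 6 were lower than in TKO D6 and none higher, where 39.5% of all genes were lower and 37.1% higher. Chrna3 and Chrna5 are nicotinic acetylcholine receptor subunits whose genes lie 2.33 kb apart on chromosome 9. Both lay above WT at D6 and below their TKO D6 level in TKO D8. Chrna3 had 8.34 and 12.4 CPM in TKO D6 and 2.84 and 3.25 CPM in TKO D8, against 4.85 and 4.48 CPM in WT D6 and 35.9 and 30.4 CPM in WT D8. Chrna5 had 10.4 and 12.2 CPM in TKO D6 and 3.75 and 4.48 CPM in TKO D8, against 5.76 and 4.96 CPM in WT D6 and 27 and 27.1 CPM in WT D8. The cannabinoid receptor Cnr1 had 25.1 and 34 CPM in TKO D6 and 18.1 and 16 CPM in TKO D8, against 14 and 12.9 CPM in WT D6 and 94.3 and 96.3 CPM in WT D8. Chrnb2, a subunit that pairs with them, at 18.4% of WT D8 in TKO D8, shares 15.0% of its 31-base words with other genes and is uncertain.

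Of 9 synaptic vesicle genes, 7 were above WT at D6 in both TKO libraries, where 33.8% of all genes tested were. In TKO D8 1 of the 9 was above the TKO D6 level, 3 were below and 5 overlapped, where 37.1% of all genes tested were above and 39.5% below. Cadps, which primes dense-core vesicles, had 25.4 and 29 CPM in TKO D6 and 19.5 and 20.2 CPM in TKO D8, against 16.3 and 15 CPM in WT D6 and 105 and 102 CPM in WT D8. Rab3c, a small GTPase of the vesicle membrane, had 11.2 and 17.7 CPM in TKO D6 and 18.4 and 16.9 CPM in TKO D8, against 3.79 and 3.31 CPM in WT D6 and 90.4 and 86.8 CPM in WT D8. Of the 3 secretory granule and neuropeptide genes, Cartpt, a neuropeptide precursor, had 11.6 and 18.7 CPM in TKO D6 and 5.23 and 5.51 CPM in TKO D8, against 4.77 and 3.82 CPM in WT D6 and 40.6 and 37.4 CPM in WT D8. Scg2, a granin, did the opposite, with 1.43 and 1.84 CPM in TKO D6 and 3.89 and 4.02 CPM in TKO D8, against 2.72 and 1.89 CPM in WT D6 and 24.4 and 26 CPM in WT D8. The transporter of inhibitory vesicles Slc32a1, with 24.2% of its words shared and so uncertain, and the glycine transporter Slc6a5 were above WT at D6 in both TKO libraries. Slc6a5 had 2.86 and 4.27 CPM in TKO D6 and 3.85 and 4.27 CPM in TKO D8, against 0.687 and 0.493 CPM in WT D6 and 18.3 and 14.2 CPM in WT D8.

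**Figure D4:**
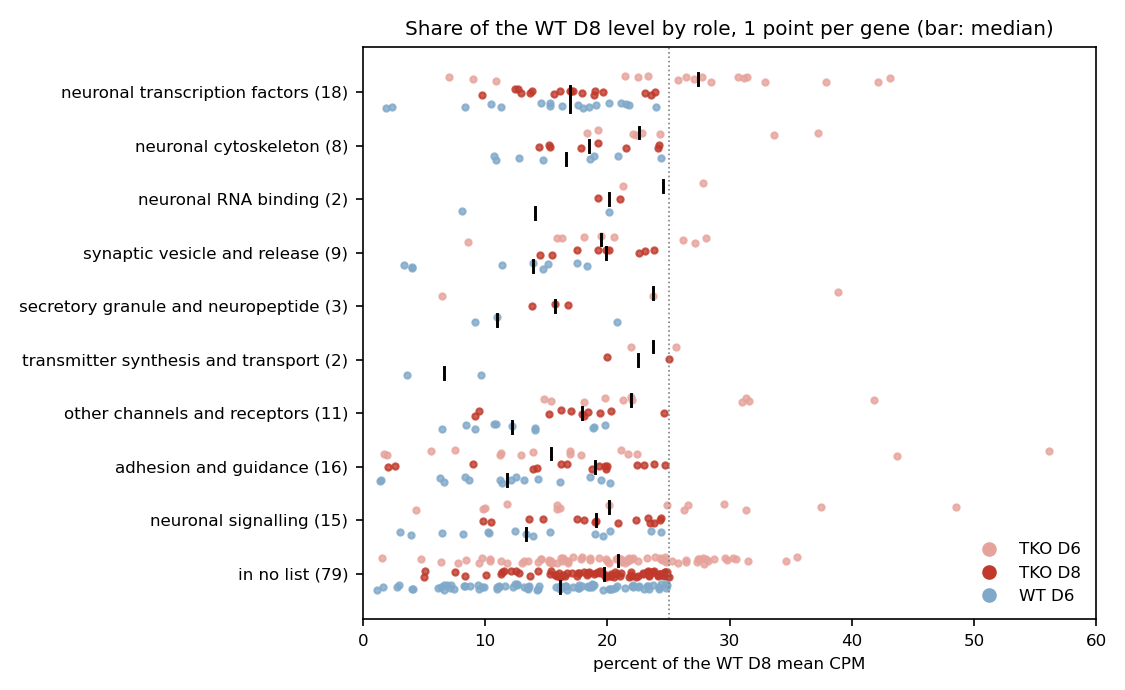
Mean CPM of each gene as a percent of its WT D8 mean, by role list with the number of the 162 genes in it (Bsn is in 2 lists), with 1 point per gene for TKO D6 (pale red), TKO D8 (red) and WT D6 (blue), black bars at medians and a dotted line at the limit set by the rule. The widest spread of TKO D6 values is among adhesion and guidance genes, from 1.75% to 56.1%.

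The 79 genes in no role list had a median of 20.9% of the WT D8 level in TKO D6, 19.7% in TKO D8 and 16.1% in WT D6. In TKO D8, 23 were above and 27 below their TKO D6 level, where 37.1% of all genes tested were above and 39.5% below. Olfm1, a secreted glycoprotein, had 93.7 and 116 CPM in TKO D6 and 62.5 and 61.5 CPM in TKO D8, against 71.8 and 72.1 CPM in WT D6 and 300.4 and 289 CPM in WT D8. Add2, which caps actin under the membrane, had 38.3 and 52.9 CPM in TKO D6 and 41.6 and 40.3 CPM in TKO D8, against 36.3 and 33.3 CPM in WT D6 and 224 and 208 CPM in WT D8. Chosen after their values were seen, Actl6b and Dpf3, subunits of the neuronal BAF chromatin remodelling complex, belong here. Actl6b had 4.54 and 5.49 CPM in TKO D6 and 2.93 and 3.89 CPM in TKO D8, against 2.82 and 2.44 CPM in WT D6 and 30.8 and 29.3 CPM in WT D8. Slc12a5, the chloride exporter of maturing neurons, also chosen after its values were seen, had 4.99 and 6.71 CPM in TKO D6 and 7.71 and 6.77 CPM in TKO D8, against 7.23 and 6.71 CPM in WT D6 and 62.1 and 57.7 CPM in WT D8.

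Tests on the 162 genes were made between groups that the choice of genes had not used. Genes are called higher or lower by edgeR's quasi-likelihood test at an adjusted p under 0.05 (Benjamini-Hochberg over all 18555 genes tested). Between TKO D6 and TKO D4, 142 of the 162 genes were higher, 1 was lower and 19 did not pass, where 24.7% of all genes were higher and 23.4% lower. The median log2 fold change was 2.20. Nhlh2 rose by a log2 fold change of 7.07 ± 0.16 (SE, adjusted p = 6.38e-14), with 83.9 and 94.4 CPM in TKO D6 against 0.663 and 0.608 CPM in TKO D4. Scrt2 rose by 6.25 ± 0.21 (SE, adjusted p = 4.79e-13), Scrt1 by 6.10 ± 0.19 (SE, adjusted p = 1.44e-13) and Robo3 by 5.58 ± 0.16 (SE, adjusted p = 5.81e-14) on the log2 scale. The single lower gene, the glycosyltransferase Galnt13, had 2.35 and 1.85 CPM in TKO D6 and 2.69 and 3.14 CPM in TKO D4 (log2 fold change -0.52 ± 0.21 SE, adjusted p = 0.0491), and this call was lost in most alternatives. In the other 214 late-onset genes 158 were higher and 22 lower. This comparison shares no library with the rule.

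**Figure D5:**
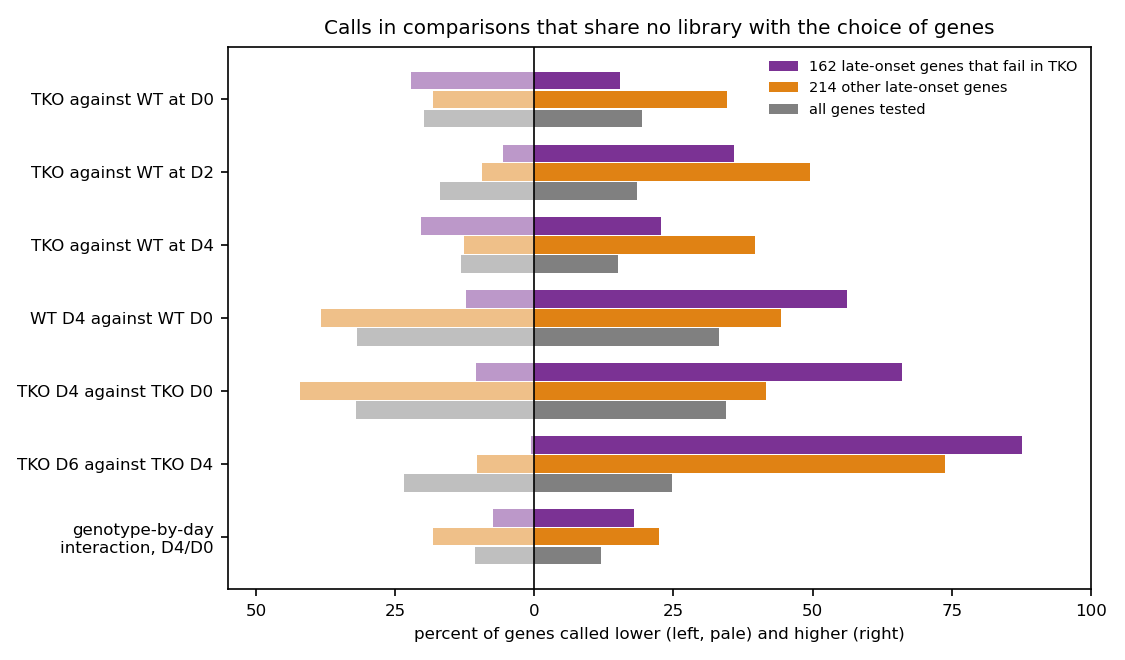
Percent of genes called higher (right, dark) and lower (left, pale) by edgeR at an adjusted p under 0.05 in each of 7 comparisons, for the 162 genes (purple), the 214 other late-onset genes (orange) and all 18555 genes tested (grey). For TKO D6 against TKO D4 the purple bar reaches 142 of 162 genes, and for TKO against WT at D4 the purple bars to both sides are of similar length.

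At D2 the TKO level was more often above WT than below. Of the 162 genes, 58 were higher, 9 were lower and 95 did not pass, where 18.4% of all genes were higher and 16.9% lower, and the median log2 fold change was 0.68. Of the 214 other late-onset genes, 106 (49.5%) were higher and 20 lower. Without WT D2 replicate 2, 35 were higher. Many of these are low levels, since 83 of the 162 genes reached 1 CPM in a compared group. Among genes with at least 1 CPM in a compared group the highest were Pdzrn4, a ubiquitin ligase family member, with 2.32 and 2.6 CPM in TKO D2 against 0.39 and 0.318 CPM in WT D2 (log2 fold change 2.74 ± 0.24 SE, adjusted p = 1.57e-07), and Ret with 3.74 and 3.81 CPM in TKO D2 against 0.603 and 0.61 CPM in WT D2 (2.57 ± 0.27 SE, adjusted p = 1.18e-06). L1cam, an axonal adhesion molecule, had 8.65 and 8.81 CPM in TKO D2 against 2.14 and 1.96 CPM in WT D2 (2.03 ± 0.24 SE, adjusted p = 3.85e-06). Tubb3 was higher by a smaller amount, with 179 and 173 CPM in TKO D2 against 110.1 and 112 CPM in WT D2 (0.60 ± 0.19 SE, adjusted p = 0.0174). The lowest was the sodium channel Scn3a, with 0.866 and 0.949 CPM in TKO D2 against 3.31 and 4.32 CPM in WT D2 (-2.16 ± 0.27 SE, adjusted p = 6.68e-06).

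At D0, 25 of the 162 genes were higher in TKO, 36 were lower and 101 did not pass, where 19.4% of all genes were higher and 19.9% lower. Of the 67 genes with at least 1 CPM in a D0 group, 13 were higher and 29 lower, against 3244 higher and 3467 lower of 14143 genes at this level. Of the 214 other late-onset genes, 74 were higher and 39 lower. The number higher was 11 without TKO D0 replicate 2 and 16 without WT D0 replicate 1. Cadm3, a synaptic adhesion molecule whose annotation overlaps Ackr1, had 2.81 and 2.36 CPM in TKO D0 against 0.181 and 0.439 CPM in WT D0 (log2 fold change 3.10 ± 0.36 SE, adjusted p = 3.14e-06). Fam57b had 0.517 and 0.341 CPM in TKO D0 against 3.01 and 3.04 CPM in WT D0 (-2.76 ± 0.21 SE, adjusted p = 1.86e-08). At D4, 37 were higher, 33 were lower and 92 did not pass, where 15.1% of all genes were higher and 13.2% lower. Of the 109 genes with at least 1 CPM in a D4 group, 28 were higher and 32 lower, against 2477 higher and 2353 lower of 14069 genes at this level. Among the 214 other late-onset genes 85 were higher and 27 lower. The number higher was 24 without either TKO D4 library, and the number lower was 19 without WT D4 replicate 2 or without TKO D4 replicate 1. The 18 neuronal transcription factors made up 11 of the 37 and 1 of the 33, where 15.1% of all genes were higher and 13.2% lower.

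Several transcription factors and axonal genes were among those higher in TKO at D4. Robo3 had 4.7 and 4.97 CPM in TKO D4 against 0.177 and 0.397 CPM in WT D4 (log2 fold change 4.04 ± 0.35 SE, adjusted p = 1.36e-07). Isl1 had 2.23 and 1.57 CPM in TKO D4 against 0.206 and 0.336 CPM in WT D4 (2.78 ± 0.32 SE, adjusted p = 4.76e-06). Dcx had 3.36 and 4.27 CPM in TKO D4 against 0.627 and 0.912 CPM in WT D4 (2.28 ± 0.32 SE, adjusted p = 3.45e-05), and Onecut2 had 18.2 and 21.8 CPM in TKO D4 against 7 and 8.31 CPM in WT D4 (1.36 ± 0.19 SE, adjusted p = 4.45e-05). Tubb3 did not pass at D4, with 68.3 and 65.4 CPM in TKO D4 against 68.6 and 79.7 CPM in WT D4 (adjusted p = 0.56). The lowest at D4 was Fam155a, a subunit of the NALCN sodium leak channel, with 0.519 and 0.433 CPM in TKO D4 against 1.65 and 2.86 CPM in WT D4 (-2.24 ± 0.4 SE, adjusted p = 0.000403). The genes higher in TKO on each of D0, D2 and D4 were 7 in number, namely Cadm3, Chsy3, Isl1, Onecut2, Onecut3, Pak3 and Robo3. Those lower on each of these days were 3, namely Celsr3, Cux2 and Gdap1l1. These 10 names were read out after the tests. How many of all genes were called the same way on all 3 days was not counted, so whether 7 or 3 is many cannot be told.

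Between D0 and D4 more of the genes were higher than lower in both genotypes. In D4 against D0, 107 of the 162 genes were higher and 17 lower in TKO, where 34.4% of all genes were higher and 32.1% lower. In WT, 91 were higher and 20 lower, where 33.1% of all genes were higher and 31.8% lower. Of the 214 other late-onset genes, 89 were higher and 90 lower in TKO, and 95 were higher and 82 lower in WT. Tox2, an HMG-box factor, had 8.22 and 7.93 CPM in TKO D4 against 0.161 and 0.137 CPM in TKO D0. Prdm16, a zinc finger factor of stem and progenitor cells, moved down, with 1.38 and 1.03 CPM in TKO D4 against 11.3 and 12.3 CPM in TKO D0 (log2 fold change -3.39 ± 0.18 SE, adjusted p = 1.79e-11), and with 1.79 and 1.62 CPM in WT D4 against 20.1 and 24.7 CPM in WT D0 (-3.77 ± 0.17 SE, adjusted p = 1.46e-12). The test of the difference between genotypes in this early change called 29 of the 162 genes higher and 12 lower, where 11.9% of all genes were higher and 10.6% lower, and of the 214 other late-onset genes 48 were higher and 39 lower.

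The whole role lists show how far the gap at D8 reaches beyond the 162 genes. The 10 lists together name 601 genes, of which 580 were tested in TKO D8 against WT D8. The 162 supply 83 of these, which are lower by the rule and stay out of the counts that follow. Of the other 497 listed genes, 323 were lower, 75 were higher and 99 did not pass, where 31.8% of all genes were lower and 35.8% higher. Their median log2 fold change was -1.10, against 0.04 over all genes. In the list of neuronal transcription factors, 41 of 73 genes outside the 162 were lower and 12 higher, and Pou3f2, a POU factor of neural development outside the 162, averaged 38.8 CPM in TKO D8 against 281 CPM in WT D8 (log2 fold change -2.67 ± 0.12 SE, adjusted p = 4.5e-12). In the cytoskeletal list, 26 of 33 were lower and 4 higher, and the higher ones were Nefh, Arc, Prph and Nefm. Nefh, the heavy neurofilament subunit of mature axons, averaged 53.9 CPM in TKO D8 against 7.8 CPM in WT D8 (2.97 ± 0.19 SE, adjusted p = 2.03e-10). In the adhesion and guidance list, 68 of 81 were lower and 6 higher. In the Notch and cell-cycle-exit list, which holds none of the 162, 16 of 22 were lower and 2 higher, and the cell cycle inhibitor Cdkn1c averaged 68.9 CPM in TKO D8 against 466 CPM in WT D8 (-2.58 ± 0.09 SE, adjusted p = 1.3e-13).

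Counts outside the 162 in the remaining role lists were 17 lower and 2 higher of 19 for neuronal RNA-binding proteins and 39 lower and 7 higher of 53 for synaptic vesicle and release genes. The shares over all genes tested were 31.8% lower and 35.8% higher. For channels and receptors 35 of 57 were lower and 8 higher, and for neuronal signalling 59 of 105 were lower and 19 higher. Transmitter synthesis and transport had 13 lower and 7 higher of 29, with a median log2 fold change of -0.08. The list of secretory granules and neuropeptides had a median of 0.40, with 10 lower and 8 higher of 26. Its highest gene, the thyrotropin-releasing hormone precursor Trh, averaged 641 CPM in TKO D8 against 7.82 CPM in WT D8 (log2 fold change 6.54 ± 0.19 SE, adjusted p = 1.17e-14), and Calca averaged 26.2 CPM in TKO D8 against 1.14 CPM in WT D8 (4.7 ± 0.16 SE, adjusted p = 9.68e-14).

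Markers of other cell states moved with the gap at D8, where 35.8% of all genes tested were higher in TKO and 31.8% lower. In the core pluripotency list 13 of 15 genes were higher in TKO D8 and 2 lower, and their summed level was 2400 to 2558 CPM in TKO D8 and 805 to 841 CPM in WT D8. Pou5f1 had 559 and 508 CPM in TKO D8 against 20.2 and 8.62 CPM in WT D8. At D6, where most of the 162 genes were higher in TKO, the same sum was 1145 to 1397 CPM in TKO D6 and 1513 to 1566 CPM in WT D6, while Pou5f1 itself had 58.2 and 46.4 CPM in TKO D6 against 6.08 and 3.16 CPM in WT D6. In the proliferation list 18 of 20 were higher and none lower, with sums of 5402 to 5423 CPM in TKO D8 and 3709.7 to 3784 CPM in WT D8. Of the 20 genes of epithelia and trophoblast 16 were higher and none lower, with sums of 1268 to 1306 CPM in TKO D8 and 369 to 374 CPM in WT D8. The neural progenitor list had 31 of 38 genes outside the 162 lower and 3 higher, with sums over the whole list of 2632 to 2649 CPM in TKO D8 and 7397 to 7567 CPM in WT D8. The part of these shifts in the level of the 162 genes was not tested.

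Other lists moved less uniformly at D8. Of all genes tested, 35.8% were higher in TKO D8 than in WT D8 and 31.8% lower. The counts for astroglia and oligodendrocytes lie near these shares. Of 18 naive pluripotency genes 14 were higher and 3 lower, with sums of 607 to 609 CPM in TKO D8 and 378 to 404 CPM in WT D8. Of 20 endoderm genes 7 were higher and 3 lower, with sums of 2419 to 3798 CPM in TKO D8 and 1728 to 2447 CPM in WT D8, and the number higher ran from 4 to 12 when single D8 libraries were left out. Of 17 mesoderm and streak genes tested outside the 162, 8 were higher and 1 lower. The sums over the whole list were 63.8 to 71.3 CPM in TKO D8 and 145 to 147 CPM in WT D8, and Lhx1, 1 of the 162, averaged 18.6 CPM in TKO D8 and 115 CPM in WT D8 of these. The streak marker Mesp1 was at 0.0354 and 0.0623 CPM in TKO D8 and at 0 and 0.0345 CPM in WT D8. Of 20 genes of astroglia and oligodendrocytes 7 were higher and 6 lower, of 23 of the neural crest and sensory ganglia outside the 162 7 were higher and 9 lower, and of 14 of mesenchyme 3 were higher and 6 lower. In the list of the REST complex 4 of 15 were higher and 7 lower, and Rest itself averaged 129 ± 5.87 CPM in TKO D8 and 74.0 ± 1.14 CPM in WT D8 (SD, n = 2 each), and 81.0 ± 7.81 CPM in TKO D6 and 82.3 ± 3.25 CPM in WT D6. Of 14 genes of DNA methylation 5 were higher and 8 lower.

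The 162 genes are long. The median gene spanned 43.9 kb and 59 genes (36.4%) spanned 100 kb or more, against a median of 76.2 kb and 40.7% in the other late-onset genes and 22.8 kb and 14% in 16832 protein-coding genes tested. They are spread over 20 chromosomes, with 3 on the X chromosome. Pairs of the 162 that lie close together include Chrna5 with Chrna3, Asic4 with Tmem198 5.19 kb apart on chromosome 1, Pak3 with Dcx 58.0 kb apart on the X chromosome and Tlx1 with Lbx1 75.7 kb apart on chromosome 19. Lrrtm1, a synaptic adhesion protein, lies within Ctnna2, the neuronal alpha-catenin. The same transcript led in TKO D8 and WT D8 for 136 of the 162 genes, of which 24 have 1 annotated transcript, and another led for 26. For Bsn, the presynaptic scaffold, the transcript that led in WT D8 held 67.2% of the gene's level there. It held 45.7% in TKO D8, where the other annotated transcript led. Per length, the highest of the named genes was again Tubb3, with 295 TPM in TKO D8 and 1549 TPM in WT D8, and Gap43, next in WT D8, had 55.6 TPM in TKO D8 and 415 TPM in WT D8. Dpysl3, at 79.8 TPM in TKO D8 and 381 TPM in WT D8, was above Gap43 in TKO D8.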

How the data were processed

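Polyadenylated RNA was made into stranded libraries with a TruSeq kit, per the labels' protocols. They were processed by the authors with Trim Galore 0.6.2 and kallisto on GRCm38, per the submitters' processing notes, and each deposited table holds 119414 transcripts of 1 library. The deposited estimated counts are not scaled to depth, and the deposited TPM values are scaled by effective length, per the file headers, which give length in bases. Transcripts were matched to GENCODE M21 by identifier (116728 matched), and the 2686 unmatched ones, with 0.943% to 1.1% of a library's counts, stayed out of the sums and tests. Counts were summed per gene and rounded. Library totals ran from 26015282 to 38074768, and with 2 libraries a group the spread limits precision.

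One edgeR model (version 4.0.16 in R 4.3.3) covered the 20 libraries, with TMM scaling, the filterByExpr filter by group and the quasi-likelihood test. It had 18555 genes tested, 10 residual degrees of freedom and Benjamini-Hochberg adjusted p under 0.05; the SE of a log2 fold change is its size divided by the square root of F. The fit was tested on simulated data. Comparisons that share libraries with the rule are described without a test. Genes with 10% or more of their 31-base words in transcripts of other genes are uncertain, which holds for 12 of the 162. Alternatives were relative log expression scaling, no filter, a replicate block, length-scaled TPM counts, DESeq2 1.42.0, the compared groups alone, adjusted p under 0.01, single libraries left out, and other thresholds for the rule. The members, lists and comparisons were chosen with earlier results of these data known.

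Genes named by rule were the 12 highest in WT D8, the 6 with the largest ratio of WT D8 to TKO D8, up to 4 per role list, up to 4 highest and 4 lowest per tested comparison, the genes nearest each threshold, and the 4 with the highest TKO D6 share of WT D8 and the 4 with the highest ratio of TKO D8 to TKO D6; not all are printed, and others are named as markers, neighbours or chosen after their values were seen.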

Additional observations from a re-analysis of the deposited data

Results flagged for a closer look

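The change from D0 to D4 differed between TKO and WT for 29 genes in 1 direction and 12 in the other by the test of the interaction itself (edgeR), and the 8 described here are the 4 highest and 4 lowest among those with at least 1 CPM in a D0 or D4 group. Tox2, an HMG-box factor, had an interaction of 2.9 ± 0.5 on the log2 scale (SE, adjusted p = 0.000477), with a log2 fold change of 5.61 in TKO and 2.71 in WT. Robo3 had an interaction of 2.63 ± 0.73 (SE, adjusted p = 0.0156), with 2.39 in TKO and -0.24 in WT, where the second did not pass (adjusted p = 0.769). Its call was lost without WT D0 replicate 2, where the value was 1.82, and without WT D4 replicate 1, where it was 2.16. Disp2, related to Disp1, which releases lipid-modified ligands, had 2.45 ± 0.52 (SE, adjusted p = 0.00256), with 2.9 in TKO and 0.46 in WT. Gfra1 had 2.12 ± 0.37 (SE, adjusted p = 0.00052) and was higher at D4 in TKO, by 1.16, and lower at D4 in WT, by -0.96.

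On the other side, Cadm3 had an interaction of -2.69 ± 0.4 (SE, adjusted p = 0.000124), with log2 fold changes of 3.39 in TKO and 6.08 in WT. Dclk1, a microtubule-associated kinase related to Dcx, had -2.31 ± 0.33 (SE, adjusted p = 9.2e-05), with 2.64 in TKO and 4.95 in WT. Elfn2 had -2.5 ± 0.61 (SE, adjusted p = 0.00683), with -0.75 in TKO, which did not pass (adjusted p = 0.128), and 1.75 in WT. Pax2, a paired-box factor, had -3.34 ± 0.91 (SE, adjusted p = 0.0137), with 1.59 in TKO and 4.93 in WT. The Pax2 libraries at WT D0 held 0.0602 and 0 CPM, so its fitted size depends on the prior count, and its call was lost without WT D0 replicate 2, where the value was -2.44, and without TKO D0 replicate 1, where it was -3.02.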

How the results depend on the processing

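The choice of genes depended on scaling and thresholds: 97 met the rule with TMM-scaled CPM, 320 with folds of 3 and 10 with folds of 8, and 152 to 171 with single libraries left out. At an adjusted p under 0.01 the numbers called were 11 higher at D0, 22 higher and 18 lower at D4, and 18 higher and 6 lower in the interaction. Fitting the compared groups alone called 11 higher at D0, length-scaled TPM counts called 21 lower at D4, and no low-count filter called 19 lower in the interaction. The cause of these shifts was not tested. Galnt13, the 1 gene lower in TKO D6 than in TKO D4, was not called (0 lower) at an adjusted p under 0.01, with relative log expression scaling, with the replicate block, with the compared groups alone or with DESeq2, and length-scaled TPM counts called 2.

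Replicate numbers did not pair the libraries: over 45 pairs of groups the correlation of deviations of same-numbered libraries ran from -0.0413 to 0.0527. With the replicate number as a block, 58 genes were higher and 9 lower at D2, 26 higher and 36 lower at D0, 37 higher and 33 lower at D4, and 142 higher in TKO D6 than in TKO D4.

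With single libraries left out, the lone library of a group being assumed to vary like the other groups, the numbers higher and lower were 11 to 28 and 25 to 39 at D0, 35 to 63 and 7 to 10 at D2, and 24 to 41 and 19 to 35 at D4. They were 86 to 93 and 17 to 23 from D0 to D4 in WT, 99 to 108 and 16 to 19 in TKO, 139 to 143 and 0 to 2 for TKO D6 against TKO D4, and 22 to 32 and 8 to 14 in the interaction. In the role lists at D8, with the 83 of the 162 genes included, 67 to 80 were higher and 383 to 408 lower, against 75 and 406 with all libraries. The genes with a lower mean in TKO D8 than in TKO D6 numbered 81 to 114, against 96 with both libraries. Among the genes named as highest or lowest in a tested comparison, none changed sign in an alternative run. For these genes, 1341 alternatives left the call in place and 37 lost it, and the cause of each loss was not tested. They were picked as extremes, and genes named only by the other rules are not in these numbers. Whether a count of genes changed direction was not part of this check. At its lowest, 81 of 162, the number with a lower mean in TKO D8 was no majority.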
